A study of Homo sapiens with 47 samples.

Results

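Circulating tumor cells (CTCs) with a high mitochondrial share were the 7 of 37 CTCs in which transcripts of the mitochondrial genome held at least 10% of the cell's values. They were chosen by that share itself, so the mitochondrial values below are a description of the choice and not a finding. The other 30 CTCs, below 10%, served as the low-share class. The CTCs came from the blood of 5 NOD/SCID gamma (NSG) mice, which lack functional T, B and NK cells, carrying a mammary fat pad tumor of MDA-MB-231-LM2, a human triple-negative breast cancer cell line selected for lung metastasis and here marked with GFP. The mice were a few weeks old at injection. The tumors spread from the fat pad on their own, and blood was taken at a terminal draw. All the CTCs therefore carried 1 cell line, were picked singly on their GFP signal and were amplified by SMARTseq2, a full-length single-cell method that primes on the poly(A) tail. A further 6 LM2 cells grown in culture were measured in the same way and are quoted as a reference level only. The labels named no batch that sets some libraries apart, so an effect of batch could not be checked.

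The mitochondrial genome encodes 13 subunits of the respiratory chain and the ATP synthase, 2 ribosomal RNAs and a set of transfer RNAs, and everything else that mitochondria need is made from nuclear genes. Its share of a single-cell library depends on how much mitochondrial RNA a cell holds and on how much cytoplasmic RNA was recovered from it, and a high share is widely used as a sign of a damaged or dying cell as well as a sign of a respiring one. From these libraries more mitochondrial RNA and less RNA from the rest of the cell cannot be told apart. For this reason each non-mitochondrial gene was expressed as counts per 1000000 non-mitochondrial counts of its own cell (CPM), which takes the mitochondrial rows out of the total.

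The 7 high-share CTCs came from only 2 of the 5 mice. Mouse 5546 gave 5 of them beside 12 low-share CTCs, and mouse 5549 gave 2 beside 2 low-share CTCs. The 2 CTCs of mouse 5541, the 4 of mouse 5542 and the 10 of mouse 5545 were all in the low-share class. In mouse 5546 the library names carry a letter c or s whose meaning the labels do not give, and high-share CTCs were present under both letters, 2 of 9 under c and 3 of 8 under s. With 2 mice holding both classes the planned test needed more mice, at least 3, so no gene below carries a test. A gene is called higher or lower where its mean in the high-share CTCs, plus 1 CPM, differed at least 2-fold from that of the low-share CTCs in the same direction in both mice. An exact permutation test over 2 mice cannot give a two-sided p below 0.5.

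Mitochondrial share was 23.9% in 5546-s7, 22.7% in 5546-s9, 21.5% in 5546-c10, 16.9% in 5546-c2, 16.8% in 5546-s1, 12.0% in 5549-2 and 10.1% in 5549-6. The nearest CTCs below the threshold were 5546-s2 at 9.41%, 5546-c6 at 9.14% and 5549-3 at 9.002%. In mouse 5546 a gap lay between 16.8% and 9.41%, whereas in mouse 5549 the classes were neighbours on a continuous scale. The low-share CTCs ranged from 4.28% to 9.41% with a median of 6.65%, and the cultured cells from 4.05% to 5.74%.

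**Figure D1:**
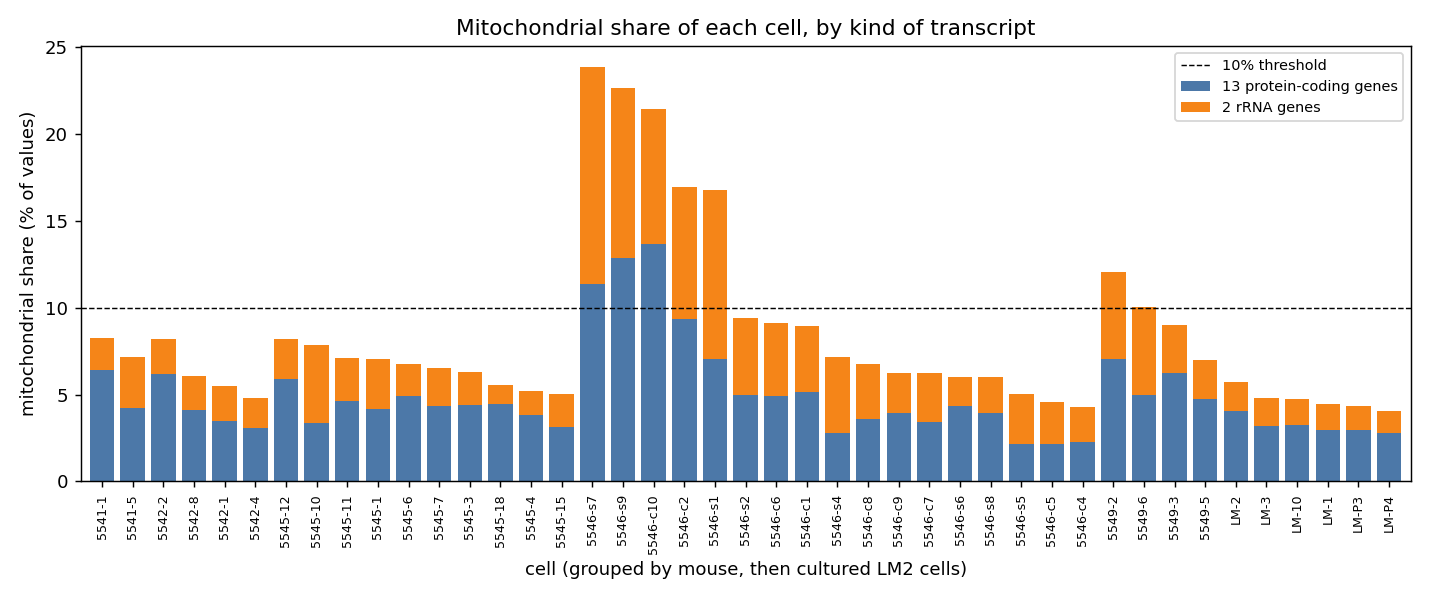
Mitochondrial share of each of the 43 cells in percent of all values, split into the 13 protein-coding genes and the 2 rRNA genes, with cells grouped by mouse and then culture. Bars over the dashed 10% line are the 7 high-share CTCs, 5 in mouse 5546 and 2 in mouse 5549.

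The share was made of ribosomal and messenger RNA in varying parts. The 2 rRNAs, MT-RNR1 and MT-RNR2, held 36.4% to 58.1% of the mitochondrial values of the high-share CTCs with a median of 44.9%, against 18.9% to 61.1% with a median of 36.3% in the low-share CTCs, and the ranges overlapped throughout. Within mouse 5546 the mean part was 47.0% in the high-share and 45.4% in the low-share CTCs, so in that mouse rRNA and messenger RNA were higher together. In mouse 5549 the mean part was 46.0% against 31.4%. The 10 transfer RNA rows held at most 0.0286% of the mitochondrial values of any high-share CTC. When the share was taken from the 13 protein-coding genes alone, 3 CTCs reached 10%, and of the 7 CTCs with the highest such share 6 were in the high-share class.

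The 13 protein-coding genes did not all follow the share. In mouse 5546 each had a higher mean percent of all values in the high-share CTCs, from 2.26 times for MT-CO1, a core subunit of cytochrome c oxidase (complex IV), to 6.48 times for MT-ND6, the complex I subunit read from the light strand. In mouse 5549, 12 of the 13 were higher, by 1.10 times for MT-CO3 to 13.9 times for MT-ND3. MT-CO1 was the exception, at a mean of 0.401% in the 2 high-share against 1.08% in the 2 low-share CTCs, a ratio of 0.37. Within the summed protein-coding part MT-CO1 took 2.45% to 7.22% in the high-share CTCs with a median of 5.56%, a median of 12.0% in the low-share CTCs with a range of 1.86% to 43.0%, and 21.3% to 37.8% in the cultured cells. MT-CO1 has a near-identical nuclear copy, MTCO1P12, and reads mapping to more than 1 place were discarded by the authors. MTCO1P12 stood at 63.3 to 326 CPM in the high-share CTCs and 18.7 to 203 CPM in the low-share CTCs, and how many MT-CO1 reads were lost to it was not tested.

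**Figure D2:**
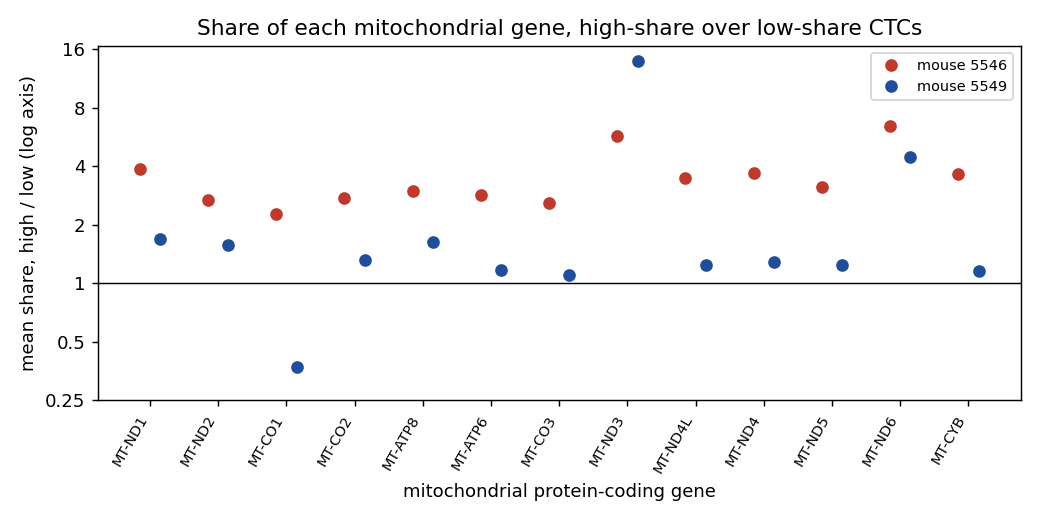
Ratio of the mean percent of all values in the high-share CTCs to that in the low-share CTCs for the 13 mitochondrial protein-coding genes, on a log axis, with 1 point for each of mice 5546 and 5549. The points of MT-CO1 lie at 2.26 and 0.37, on opposite sides of 1.

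The high-share libraries also differed in depth and in the number of genes seen. They held 588141 to 1257540 reads with a median of 893437, against 469614 to 2041333 with a median of 1375366 in the low-share CTCs. The number of non-mitochondrial genes detected was 11795 in 5546-c10, 7762 in 5546-c2, 6408 in 5546-s1, 6287 in 5549-2, 5927 in 5549-6, 5461 in 5546-s7 and 4636 in 5546-s9. The low-share CTCs ranged from 2295 to 12282 genes with a median of 7768, so the ranges overlapped. The difference of the means, high minus low, was -1512 genes in mouse 5546 and -2658 genes in mouse 5549, and after thinning each cell to 445133 non-mitochondrial reads it was -1025 and -2028 genes. The exact permutation p over the 2 mice was 0.5, the smallest the design allows, for reads, genes, thinned genes and the share of the 50 highest genes alike, before and after Benjamini-Hochberg adjustment. The 50 highest genes held 21.5% to 33.6% of the non-mitochondrial values of the high-share CTCs and 21.4% to 44.1% of those of the low-share CTCs. Of the 4 CTCs with the lowest mean Spearman correlation to the other CTCs, 3 were high-share, namely 5549-6, 5546-s9 and 5546-s7 at 0.381 to 0.394, and the other was the low-share 5545-6 at 0.371. Counts without these 4 are given beside the lists described at most length. Without them the median log2 difference of all genes tested, averaged over the 2 mice, was -0.63 in place of -0.23. The share of all genes called without them is not given, so those list counts have no background share beside them.

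Of 7519 genes tested, 645 were higher (8.58%) and 1007 lower (13.4%) in the high-share CTCs by the size rule. Without the rescaling, on the deposited values, 247 were higher and 1654 lower, and with means of log values 261 and 1737. At a threshold of 8%, where all 5 mice held both classes and each had to show the difference, 10 of the 7519 were higher and 33 lower. A short gene list can hold 0 calls there without differing from all genes tested. Taken alone, mouse 5546 had 22.6% of genes at least 2-fold higher and 27.9% at least 2-fold lower, and mouse 5549 had 31.7% and 42.5%. The sign of the difference was the same in both mice for 53.3% of genes. The median log2 difference over all genes tested was -0.08 in mouse 5546 and -0.37 in mouse 5549, and the SD over genes was 1.66 and 3.06. No gene reached an adjusted p under 0.05 in limma on the 2 mice, where 155 higher and 359 lower genes had an unadjusted p under that value, nor in edgeR on summed reads, with 70 and 142. DESeq2 on the same summed reads called 10 higher and 3 lower. Single-gene calls below are descriptions of size.

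Length of the transcript moved with the calls. Genes were split into quintiles by their longest annotated transcript. In the shortest quintile, 122 to 2019 bases, 4.92% were higher and 16.4% lower, and in the longest, 6234 bases and over, 13.7% were higher and 7.79% lower. The median log2 difference went from -0.25 to 0.22 in mouse 5546 and from -1.02 to 0.61 in mouse 5549 between these quintiles. The genes called higher had a median longest transcript of 4868 bases and those called lower 3008 bases, against 3721 bases over all genes tested. Long noncoding RNAs made up 4.81% of the genes called higher, 1.19% of those called lower and 1.85% of all tested. Their summed share of the non-mitochondrial values was 1.05% to 11.1% in the high-share CTCs with a median of 2.64%, and 0.531% to 2.86% with a median of 1.40% in the low-share CTCs, and both 5549-6 at 11.1% and 5546-s9 at 5.63% exceeded every low-share CTC.

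**Figure D3:**
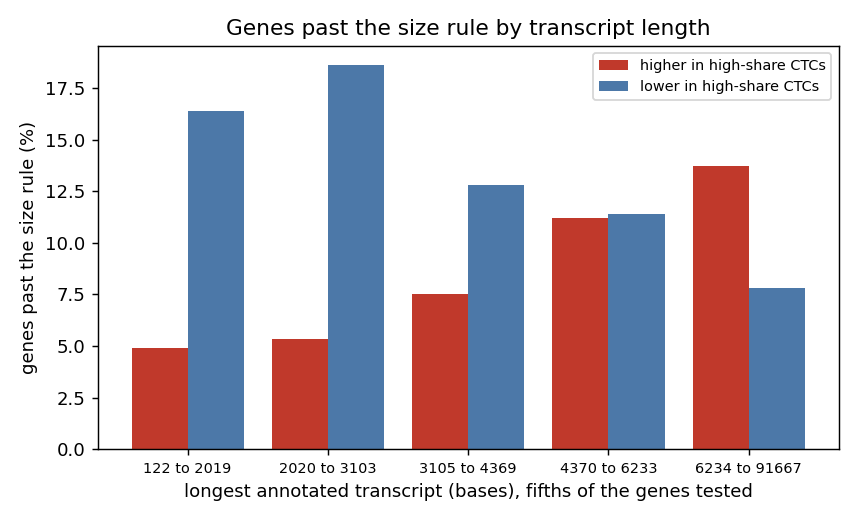
Percent of genes past the size rule in each direction (vertical axis) in quintiles of the genes tested by the length of their longest annotated transcript in bases (horizontal axis). The percent called higher increases from 4.92% in the shortest to 13.7% in the longest quintile, while the percent called lower is 16.4%, 18.6%, 12.8%, 11.4% and 7.79%.

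Of all genes tested, 2 had a lower level in each of the 7 high-share CTCs than in any of the 30 low-share CTCs. The first was ANXA2 (chromosome 15), encoding annexin A2, a calcium-dependent membrane-binding protein. ANXA2 stood at 5326, 3963, 5953, 6852 and 1912 CPM in 5546-s7, 5546-s9, 5546-c10, 5546-c2 and 5546-s1, and at 4718 and 632 CPM in 5549-2 and 5549-6. The low-share CTCs ranged from 9295 to 22891 CPM with a median of 13951, well clear of every high-share CTC. The log2 difference was -1.59 in mouse 5546 and -2.60 in mouse 5549. Within the c libraries of mouse 5546 ANXA2 was 5953 and 6852 CPM in the high-share CTCs against at least 10561 in the low-share CTCs, and within the s libraries at most 5326 against at least 9749. The cultured cells, whose mitochondrial share was low, lay near the high-share CTCs and not near the low-share ones, with up to 7114 CPM. The second gene was ANXA2P2, a processed copy of ANXA2 that shares sequence with it and so cannot be counted as separate evidence.

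ENO1, encoding enolase of glycolysis, came next. Its level lay between 1267 and 2261 CPM in the 7 high-share CTCs and was higher than that in 28 of the 30 low-share CTCs, whose median was 5306 CPM and whose lowest was 1792. RAB34, a small GTPase of membrane traffic, was at 0 to 81.0 CPM in the high-share CTCs and above that in 28 low-share CTCs, with a median of 211 CPM. ACTB, cytoplasmic actin, stood at 2182 to 16078 CPM in the high-share CTCs, and 24 of 30 low-share CTCs, of median 27339, were higher than all of them. EEF1A1, the elongation factor that carries aminoacyl-tRNA to the ribosome, was at 284 to 7263 CPM against a median of 9543, and 25 low-share CTCs exceeded every high-share CTC.

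In the other direction no gene separated all the CTCs of the classes. DDX21, an RNA helicase of the nucleolus, came nearest, although it missed the size rule with log2 differences of 1.00 in mouse 5546 and 2.16 in mouse 5549. It was at 340 to 710 CPM in the 7 high-share CTCs, and 29 of the 30 low-share CTCs lay below 340 CPM, with a median of 133. SLTM, a nuclear RNA-binding protein, was at 149 to 736 CPM with 27 low-share CTCs below all of these and a low-share median of 67.8. UBA2 was at 63.8 to 966 CPM, again with 27 low-share CTCs below and a median of 15.8. RTN4, which shapes the tubules of the endoplasmic reticulum, was at 464 to 1750 CPM with 26 low-share CTCs below and a median of 177. The cultured cells reached 262 CPM for DDX21 and 146 for SLTM, below every high-share CTC. Within the s libraries of mouse 5546 the levels of SLTM, UBA2 and RTN4 overlapped between the classes, and within the c libraries those of DDX21 did. These genes, and those of the paragraph before, were picked after their values were seen from the more separated of 7519. Counts of separated CTCs, here and for the lists below, pool mice. Mice 5541, 5542 and 5545 gave low-share CTCs only, so class and mouse are mixed in such counts. A further 2 genes known by identifier only had 28 low-share CTCs below all high-share CTCs and are not described. Whether they share sequence with the mitochondrial rows that chose the classes was not tested.

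**Figure D4:**
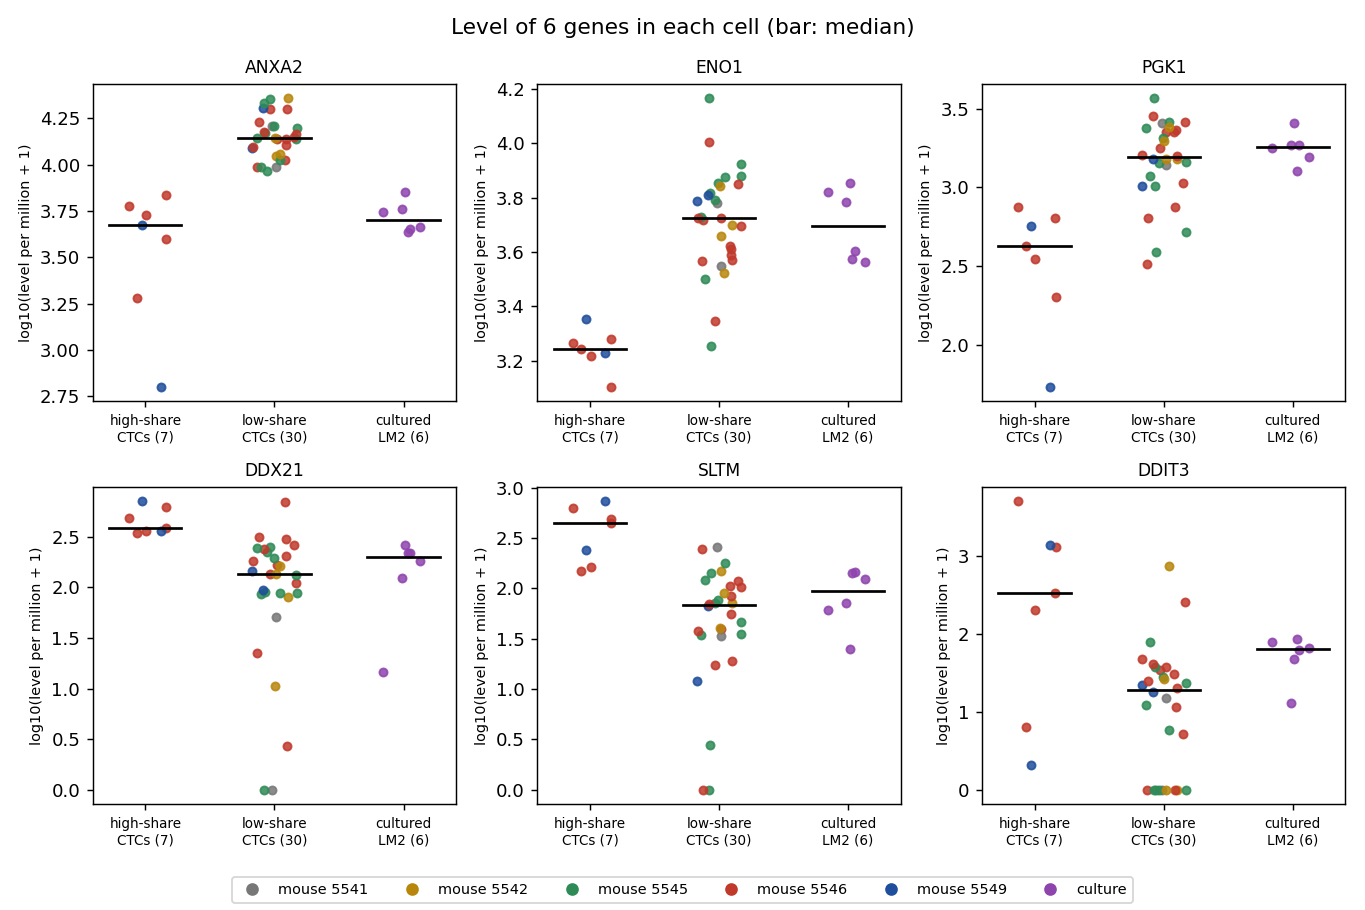
Level of ANXA2, ENO1, PGK1, DDX21, SLTM and DDIT3 in each cell, as log10 of the level CPM plus 1, for 7 high-share CTCs, 30 low-share CTCs and 6 cultured LM2 cells, coloured by mouse, with the median as a bar. The 7 high-share points of ANXA2 lie below all 30 low-share points, and those of DDX21 above 29 of them, while the DDIT3 points of the classes overlap.

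Glycolysis, which turns glucose into pyruvate in the cytosol, separated the classes further than any other list by summed level. Of 20 listed genes 19 were tested, 7 were lower (36.8%, against 13.4% of all genes tested) and 0 were higher. The median log2 difference of the list was -1.03 in mouse 5546 and -1.68 in mouse 5549, against -0.08 and -0.37 over all genes tested. Measured against the median of genes in the same length quintile, the list median was -0.77 and -0.86. The summed level was 19100, 21843, 23242, 16483 and 19542 CPM in 5546-s7, 5546-s9, 5546-c10, 5546-c2 and 5546-s1, and 11614 and 6309 CPM in 5549-2 and 5549-6. The low-share CTCs ranged from 20594 to 79225 CPM with a median of 40297, and 29 of 30 exceeded every high-share CTC. The cultured cells lay at 26199 to 49703 CPM, also above every high-share CTC. The mean in mouse 5546 was 20042 ± 2612 CPM (SD, n = 5) in the high-share and 39909 ± 7659 CPM (SD, n = 12) in the low-share CTCs, 1.99 times as much. In mouse 5549 it was 8962 ± 3751 (SD, n = 2) against 52377 ± 1965 (SD, n = 2), 5.84 times as much.

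The shift was present under both letters of mouse 5546. Among the c libraries the 2 high-share CTCs had 16483 and 23242 CPM, and the 7 low-share CTCs 23978 to 50780. Among the s libraries the 3 high-share CTCs had 19100 to 21843 and the 5 low-share CTCs 36016 to 50367 CPM. Without the 4 CTCs of lowest correlation 9 of 19 members were lower and 0 higher, and the list median was -1.31. The median over all genes tested also fell without these 4, as given above. Leaving out each high-share CTC in turn gave 6 to 8 lower and 0 higher. At a threshold of 8%, where a call needed all 5 mice, 1 of 19 was lower and the list median was -0.93. At that threshold few genes of any kind were called, as given above, and 0 members of the TCA cycle, redox and hypoxia lists described below were. Several of these genes have processed copies elsewhere in the genome, and reads that fit more than 1 place were discarded in all cells. Among the 30 low-share CTCs alone, the summed level did not follow the mitochondrial share in the same direction (Spearman 0.172, a description over cells that share mice).

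The 7 members called lower stood at several steps of the pathway. PFKL, the liver form of phosphofructokinase, was listed at 0 in 5 of the 7 high-share CTCs and reached 2.04 CPM, against a median of 25.3 CPM in the low-share CTCs, 26 of which exceeded all high-share CTCs. The aldolases ALDOA and ALDOC were lower, with ALDOA at 2.04 to 160 CPM against a median of 171 and ALDOC at 0 to 44.6 CPM, where the low-share median was 0 too. TPI1, triose phosphate isomerase, was at 804 to 4384 CPM against a median of 4572. PGK1, phosphoglycerate kinase, the first step of glycolysis to yield ATP, was at 52.9 to 747 CPM against a median of 1556, with 26 low-share CTCs above all high-share CTCs and log2 differences of -1.82 and -2.02. LDHA, which turns pyruvate into lactate, was at 32.3 to 5521 CPM against a median of 7269, with log2 differences of -1.66 and -3.41. ENO1, described above, had log2 differences of -1.57 and -1.67.

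GAPDH missed the size rule in mouse 5546, with log2 differences of -0.72 and -3.12, and 23 low-share CTCs stood above every high-share CTC. PKM, pyruvate kinase, had -0.45 and -1.59, and its levels overlapped between the classes. The glucose transporter SLC2A1 had -1.46 and -0.98, just short of the rule in mouse 5549. The lactate exporter SLC16A3 had 0.26 and -0.01. Neither transporter was called, and both overlapped between the classes.

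The 250 bases before the start of LDHA, PGK1 and ENO1 are shown, on the gene's strand and 5′ to 3′, from RefSeq on GRCh38.p14. These 3 were among the members called lower and were not chosen by a stated rule. Whether the members share a regulator was not tested. Capitals mark ACGTG or its reverse complement CACGT, the core of the element bound by hypoxia-inducible factors, and overlapping matches run together. LDHA lies at chr11:18394313-18394562 on the plus strand, PGK1 at chrX:78103998-78104247 on the plus strand and ENO1 at chr1:8878687-8878936 on the minus strand.
LDHA: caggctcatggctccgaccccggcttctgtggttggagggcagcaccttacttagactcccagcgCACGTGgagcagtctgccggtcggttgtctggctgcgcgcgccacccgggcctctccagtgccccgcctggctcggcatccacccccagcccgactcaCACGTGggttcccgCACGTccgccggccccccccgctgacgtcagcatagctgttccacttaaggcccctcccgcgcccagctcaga
PGK1: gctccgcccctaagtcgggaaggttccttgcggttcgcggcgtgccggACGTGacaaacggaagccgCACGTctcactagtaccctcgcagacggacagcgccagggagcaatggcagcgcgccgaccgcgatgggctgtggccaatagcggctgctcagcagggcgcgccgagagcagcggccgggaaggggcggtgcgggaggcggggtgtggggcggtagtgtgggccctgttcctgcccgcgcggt
ENO1: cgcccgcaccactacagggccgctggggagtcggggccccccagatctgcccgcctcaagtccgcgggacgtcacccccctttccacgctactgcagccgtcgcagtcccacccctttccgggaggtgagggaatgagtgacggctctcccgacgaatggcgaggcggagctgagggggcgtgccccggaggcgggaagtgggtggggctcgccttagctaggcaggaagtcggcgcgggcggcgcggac
The window of LDHA held 5 matches, that of PGK1 2 and that of ENO1 0. In LDHA the matches 185 and 184 bases before the start overlapped, as did those at 87 and 86, since CACGTG matches on both strands. Windows of 7 of the 19 tested glycolysis genes held a match (36.8%), against 25.1% of the 6148 tested genes with an entry and 18.7% of all 27305 windows. Of the genes called higher 27.1% held a match and of those called lower 24.0%. A match is a description of the letters and not a binding site.

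**Figure D5:**
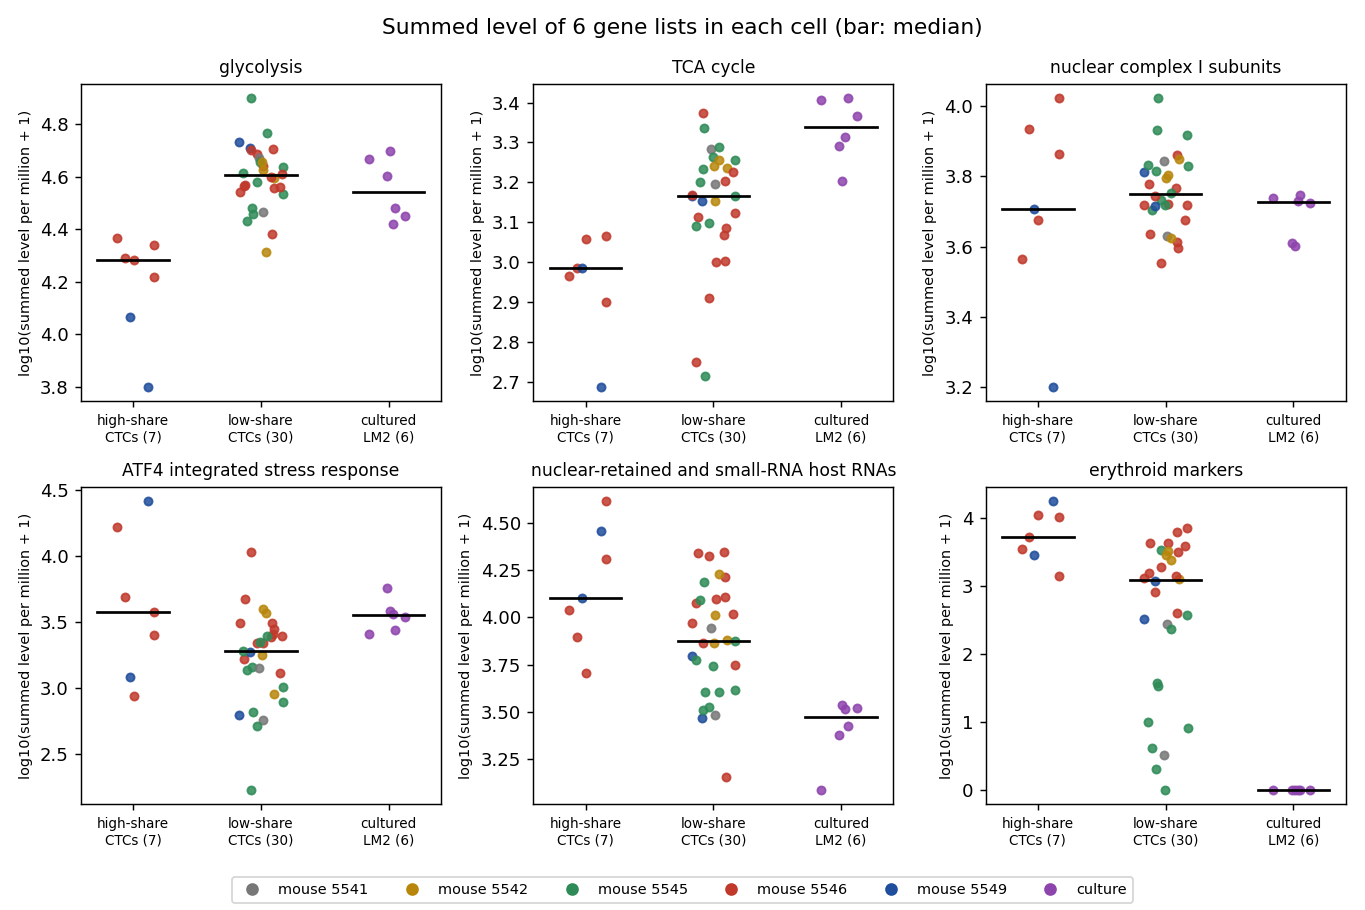
Summed level per cell of 6 gene lists, as log10 of the sum CPM plus 1, for 7 high-share CTCs, 30 low-share CTCs and 6 cultured LM2 cells, coloured by mouse, with the median as a bar. The high-share CTCs sit below 29 of 30 low-share CTCs for glycolysis and below 25 for the TCA cycle, and overlap with them for nuclear complex I subunits.

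The tricarboxylic acid (TCA) cycle, which burns the products of glycolysis inside mitochondria, was lower as well by summed level. Of 17 listed genes 15 were tested, 5 were lower (33.3%, against 13.4% of all genes tested) and 0 higher. With the 4 CTCs of lowest correlation left out, 4 were lower. The summed level was 486 to 1160 CPM in the high-share CTCs with a median of 965, and 517 to 2358 CPM with a median of 1467 in the low-share CTCs, 25 of which exceeded every high-share CTC. The 5 members were IDH3A and IDH3G of isocitrate dehydrogenase, MDH2 (malate dehydrogenase), DLD (the shared dihydrolipoamide dehydrogenase) and PDHB of pyruvate dehydrogenase. IDH3G was at 0 in 5546-s7, 5546-s9 and 5549-6 and at 16.5 to 111 CPM in the other 4 high-share CTCs, against a low-share median of 177 CPM. MDH2 was at 0 to 319 CPM against a median of 389. Within the s libraries of mouse 5546 the sums were 967 to 1160 CPM in the high-share and 560 to 2358 in the low-share CTCs and overlapped, and within the c libraries they were 792 and 922 against 1000 to 1685 CPM and did not.

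None of the tested nuclear genes of the respiratory chain and ATP synthase was called higher, against 8.58% of all genes tested. Genes in the same length quintiles as these 4 lists were called higher at 5.66% to 6.71%. Of 36 complex I subunits tested 0 were higher and 2 lower (NDUFA10 and NDUFV3), a share of 5.56% beside the 13.4% of all genes. Of 13 subunits of complexes II and III 1 was lower (SDHB), 7.69% beside the same 13.4%, and of 11 of complex IV and cytochrome c 0 passed either way. Of 17 ATP synthase subunits 3 were lower (ATP5F1C, ATP5PF and ATP5PO), 17.6% beside 13.4% of all genes, and 0 higher. Without the 4 CTCs of lowest correlation 2 complex I subunits were higher and 1 lower, 1 subunit of complexes II and III was higher and 2 lower, and 1 ATP synthase subunit was lower. The summed level of the complex I subunits was 1586 to 10535 CPM with a median of 5096 in the high-share CTCs, and 3579 to 10544 with a median of 5612 in the low-share CTCs. Its log2 difference was 0.46 in mouse 5546 and -0.80 in mouse 5549, so the mice differed in sign.

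For genes that build and maintain mitochondria the shares called were near or below those of all genes, 13.4% lower and 8.58% higher, apart from mitophagy and dynamics at 17.6% lower. Of 53 mitochondrial ribosomal proteins 6 were lower (11.3%) and 2 higher (MRPL20 and MRPL47). Of 24 tested genes for mitochondrial DNA and RNA handling, POLG, the mitochondrial DNA polymerase, was higher and LRPPRC, which stabilises mitochondrial messenger RNA, and FASTK were lower. Of 30 import and chaperone genes TOMM7 and TIMM22 were higher and TIMM23 and TRAP1 lower. In the mitophagy and dynamics list 3 of 17 were lower, namely PINK1, the kinase that marks damaged mitochondria, BNIP3L, a mitophagy receptor, and MFF, which recruits the fission machinery, and MFN2, a fusion protein, was higher. PINK1 was at 0 in 6 of the 7 high-share CTCs and at 8.71 CPM in 5546-c2, against a low-share median of 12.1 CPM. Cytosolic ribosomal proteins gave 0 calls either way among 78 tested, at 64214 to 174282 CPM in the high-share and 74344 to 300025 in the low-share CTCs.

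Redox defence, the enzymes that remove peroxides and recycle thiols, had 5 of 18 tested genes lower (27.8%, against 13.4% of all genes tested) and 0 higher, and 6 lower without the 4 CTCs of lowest correlation. Among these were HMOX1 (heme oxygenase), the peroxiredoxins PRDX1 and PRDX3, and FTH1, the ferritin heavy chain that stores iron. PRDX1 was at 0 in 5546-s9, 5546-s1 and 5549-6 and at 69.3 to 465 CPM in the other 4 high-share CTCs, against 253 to 2070 CPM in the low-share CTCs, 26 of which exceeded all high-share CTCs. FTH1 was at 480 to 1496 CPM against a median of 2269. The summed level of the list was lower in mouse 5546, 6719 ± 997 (SD, n = 5) against 12449 ± 3415 CPM (SD, n = 12), but not in mouse 5549, where FTL alone reached 17683 CPM in 5549-6. In the hypoxia list 4 of 14 were lower (28.6%, against the same 13.4%), namely HILPDA, P4HA1, P4HA2 and PLIN2, and 0 higher. Without the 4 CTCs of lowest correlation 3 were lower and 1 higher. In mice 5546 and 5549 the median log2 difference was -1.15 and -0.45 for the redox list, and -1.37 and -0.48 for the hypoxia list. Over all genes tested it was -0.08 and -0.37. Measured against genes in the same length quintile, the medians were -0.90 and 0.57 for redox, and -1.23 and -0.02 for hypoxia. In mouse 5549 neither list was therefore lower than genes of like length by more than 0.02.

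Genes of the integrated stress response, in which the factor ATF4 answers amino acid shortage, unfolded protein or mitochondrial failure, gave the highest share of higher calls among the lists of 10 or more tested genes. Of 15 tested, 6 were higher (40.0%, against 8.58% of all genes) and 1, PSAT1, lower. The 6 were TRIB3, SESN2, DDIT3 (CHOP), ATF3, PPP1R15A (GADD34) and NUPR1. The highest values were in 5546-c10 and 5549-6. TRIB3, a pseudokinase that restrains AKT and ATF4, was at 1247 CPM in 5546-c10, 267 in 5549-2, 4224 in 5549-6 and 0 in the other 4, against at most 168 in the low-share CTCs. DDIT3, a pro-apoptotic factor, was at 5082 in 5546-c10, 1382 in 5549-6, 1288 in 5546-s9, 336 in 5546-c2 and 200 in 5546-s7, but at 5.38 in 5546-s1 and 1.08 in 5549-2, against a low-share median of 18.3 and a highest value of 737 CPM. SESN2, a sensor that damps mTORC1, was at 925 in 5546-c10, 300 in 5546-c2, 56.5 in 5546-s1, 1993 in 5549-6 and 0 in the other 3 high-share CTCs.

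The summed level of the integrated stress response list was 16469 CPM in 5546-c10 and 26076 in 5549-6, and 865 to 4887 in the other 5 high-share CTCs, within the 168 to 10808 CPM of the low-share CTCs. Without 5546-c10, 1 of 15 was higher and 1 lower. Without 5549-6, 2 were higher and 2 lower and the list median was -0.53 in place of 1.61. Without the 4 CTCs of lowest correlation 4 were higher and 1 lower, with a list median of -0.17. At a threshold of 8%, where few genes of any kind were called, 0 were called and the median was -0.25. Within the s libraries of mouse 5546 the mean sum was 2759 CPM in the high-share and 4437 in the low-share CTCs, the opposite direction to the c libraries, where it was 10100 and 2451. GADD45A, a p53 and stress target, was at 4340 CPM in 5546-c10 and 3590 in 5549-6, and at 6.03 to 373 in the other 5. PPP1R15A, which restarts translation after stress, was at 1853 CPM in 5546-c10 and 1344 in 5549-6 and at most 55.2 in the other 5, below the low-share median of 94.9 with a highest low-share value of 538. MDM2, the p53-induced ligase, also of the apoptosis and p53 list, was at 1469 in 5546-s9, 478 in 5549-6 and 17.2 in 5546-c10. Its low-share range was 0 to 165 CPM with a median of 22.5. Of the 19 tested genes of that list 2 were higher, beside 8.58% of all genes, and 0 lower, beside 13.4%. The list summed to 1523 to 7184 CPM in the high-share and 629 to 4957 CPM in the low-share CTCs. Of the low-share CTCs 21 lay below every high-share CTC. Within both letters of mouse 5546 these sums overlapped between the classes. Without 5546-c10, 1 gene of the list was higher and 2 lower.

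RNAs kept in the nucleus and hosts of small nucleolar RNAs had 4 of 13 tested members higher (30.8%, against 8.58% of all genes tested) and 0 lower. These were SNHG1, SNHG6, SNHG8 and SNHG12, all hosts of small nucleolar RNAs. SNHG6 was at 84.1 to 491 CPM in the high-share CTCs, and 19 low-share CTCs, of median 61.4, lay below all of them. MALAT1, a nuclear RNA of splicing speckles and the most abundant member, did not pass, at log2 differences of 0.34 and 2.13. MALAT1 ranged from 3672 to 36782 CPM in the high-share CTCs and from 1.02 to 20495 in the low-share CTCs. In the summed list the high-share CTCs lay at 5093 to 41162 CPM and the low-share CTCs at 1433 to 22158. Without 5546-c10, 2 members were higher, and within the letters of mouse 5546 the sums overlapped.

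The genes with the largest mean log2 difference among those called higher were SESN2, TRIB3, GABPB1-AS1, TRIML2, TMEM44-AS1, ATP2B1-AS1, ZNF12, SNHG12, DDIT3 and BDNF-AS, of which 5 are antisense or small nucleolar host RNAs. The library kit does not keep strand, so reads of an antisense RNA and of its partner gene cannot be told apart where they overlap. ZNF12, a zinc finger protein, had a value above 0 in all 7 high-share CTCs, as DDIT3 did and the other 8 did not. ZNF12 was at 1.51 to 241 CPM, and 22 of 30 low-share CTCs lay below all of these. ATP2B1-AS1 reached 4097 CPM in a single high-share CTC, with a high-share median of 9.68 CPM. TRIML2 was at 1607 CPM in 5549-6, but at 9.70 in 5549-2 and 0 to 39.5 in the high-share CTCs of mouse 5546. Its log2 difference in mouse 5546 was 1.02, and low-share CTCs reached 57.5 CPM. GABPB1-AS1 was highest in 5549-6 too, at 1325 CPM, with a high-share median of 18.2. TMEM44-AS1 was above 0 in 3 of the 7.

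Those called lower with the largest mean difference included MTX2, HMOX1, STX8, SLC25A17, INTS10, CD58, PFKL, NINJ1 and NEK3. MTX2 (metaxin 2 of the outer mitochondrial membrane), STX8 (a SNARE of endosomes), SLC25A17 (a peroxisomal carrier), NINJ1 (which ruptures the plasma membrane of dying cells) and NEK3 were at 0 in all 7 high-share CTCs. Values of 0 were common in the low-share class too, where MTX2 was above 0 in 25 of 30 CTCs, SLC25A17 in 19, NINJ1 in 18 and NEK3 in 12. HMOX1 had a low-share median of 0, and its difference in mouse 5549 rested on 5549-3 at 898 CPM, with 4.76 in 5549-5. With a floor of 3 reads over the high-share CTCs of each mouse, MTX2 was at least 50.3-fold lower in mouse 5546 and at least 80.1-fold lower in mouse 5549. STX8 was at least 73.0-fold and at least 19.4-fold lower, and it was above 0 in 26 of 30 low-share CTCs. A bound of this kind covers counting error only, and a gene missed in amplification also reads 0.

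Of the 4 erythroid markers tested 3 were higher (75%, against 8.58% of all genes tested). These were HBB, HBD and HBA2, the globin genes, and ALAS2 was not called. HBA2 has a near-identical copy, HBA1, so its level is uncertain. HBB, the most abundant, was at 8682, 7740, 2742, 1125 and 4091 CPM in 5546-s7, 5546-s9, 5546-c10, 5546-c2 and 5546-s1 and at 2101 and 13781 in 5549-2 and 5549-6, against 0 to 5498 with a median of 983 in the low-share CTCs. The 10 erythroid markers with a row summed to 1400 to 17679 CPM in the high-share and 0 to 7010 in the low-share CTCs, and to 0 in all 6 cultured cells. The membrane marker SLC4A1 was at 0 in every high-share CTC. Within the c libraries of mouse 5546 the erythroid sum was 1400 and 3484 against 395 to 7010 CPM, and within the s libraries 5243 to 11179 against 811 to 4272, so the direction of the means differed between the letters. Without the s libraries, or without the 4 CTCs of lowest correlation, 0 of the 4 markers were called, as on the deposited values without rescaling. Reads were aligned to the human genome alone, and whether mouse globin RNA contributed was not tested. Neutrophil markers summed to 10.8 to 857 CPM against 0 to 784, led by S100A9, the single marker tested, which was called higher. Within the c libraries the neutrophil sum was 34.9 and 280 against 48.8 to 570 CPM. Without the 4 CTCs of lowest correlation no neutrophil or leukocyte marker was called. Platelet markers reached 4.05 CPM in any high-share CTC. Of 5 leukocyte markers tested FCER1G was called higher (20%, against the same 8.58%). The leukocyte sums overlapped at 110 to 1633 against 30.0 to 3152 CPM. The part of blood cell RNA in the differences above was not tested.

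Markers of the line overlapped between the classes. The mesenchymal and LM2 list, including VIM, CD44 and SPARC, summed to 8784 to 33482 CPM in the high-share CTCs and 12136 to 36993 in the low-share CTCs. Of its 18 tested genes 2 were lower (11.1%, beside 13.4% of all genes tested) and 0 higher. The 2 were AXL (a receptor tyrosine kinase) and FN1 (fibronectin). AXL was at 13.6 to 2775 CPM against a low-share median of 2035. FN1 was called lower on its means, while its high-share median of 475 CPM lay above the low-share median of 314. Epithelial markers had 0 calls among 5 tested. For the cell cycle, 0 of 20 S phase genes were higher and 2 lower (GINS2 and CDC45), 10% beside the same 13.4%. Of 23 genes of G2 and M phase 3 were higher (TTK, CENPE and NUSAP1), 13% beside 8.58% of all genes, and 0 lower. The G2 and M list had medians of opposite sign in the mice, 0.55 in mouse 5546 and -2.50 in mouse 5549. Interferon-stimulated and RNA-sensing genes had 3 of 17 higher (CGAS, IRF7 and IFITM1), 17.6% beside 8.58%, and 1 lower (IFIT3), 5.88% beside 13.4%. CGAS, a sensor of cytosolic DNA, had a high-share median of 0 CPM. Heat shock genes gave 1 of 13 higher, HSPA5 of the endoplasmic reticulum, and immediate early genes 2 of 17 higher, ATF3 and KLF4. These shares, 7.69% and 11.8%, stood near the 8.58% of all genes, and the median of the immediate early list was -1.39 in mouse 5546 and 3.45 in mouse 5549. Among the immediate early genes 2 were higher and 3 lower without the 4 CTCs of lowest correlation.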

How the data were processed

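Single cells were amplified by SMARTseq2 and sequenced by the authors, who aligned reads to the human genome (GRCh38, GENCODE release 38) with STAR 2.7.10a, kept uniquely mapped reads, counted genes without strand and divided the counts by DESeq2 1.42.1 size factors. The deposited values are therefore signal in normalised counts, and dividing each cell by its smallest value above 0 gave whole reads for 100% of values within 0.001. The table held 43 of the 47 labelled cells, and 4 labelled CTCs were not analysed here. Gene names came from GENCODE release 44 for 25684 of 25739 identifiers.

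Each CTC was placed in the high-share class at a mitochondrial share of at least 10%. CPM was computed over non-mitochondrial rows, averaged over the CTCs of a mouse and class, and compared as log2(mean + 1), which understates changes of low genes. Genes tested had a mean of at least 8 CPM over the CTCs and a value above 0 in at least 30% of them. The planned limma test (3.58.1) needed at least 3 mice with both classes and 2 held both, so genes are called by the 2-fold rule alone, and limma, edgeR 4.0.16 and DESeq2 1.42.0 serve as alternatives. The genes named were planned as the 10 of largest difference past the limma threshold in each direction, and as the members of each list with the smallest p. With no test, the 10 of largest mean difference past the size rule and list members past it were named instead, with the most abundant members and markers, and further genes were named after their values were seen. Cells of a mouse are not replicates, and the mouse is the unit. Members and gene lists were chosen with earlier results of these data known. Scripts were tested on simulated data. Intervals and floors cover counting error only. Promoter windows were taken from RefSeq. Some results are not reported here because the items they concern are withheld.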

Additional observations from a re-analysis of the deposited data

Results flagged for a closer look

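Of 60 groups of values checked for a sample far from the others by Dixon's critical value, 5 held one. Some groups shared cells, so the 1 in 20 rate for separate groups cannot be set beside this count. The summed level of redox defence was 21941 CPM in 5549-6 and 5649 to 8198 CPM in the other 6 high-share CTCs. The summed hypoxia response was 1703 CPM in 5546-c10 and 87.7 to 599 CPM in the other 6. Among the 5 high-share CTCs of mouse 5546, 5546-c10 stood apart for the integrated stress response at 16469 CPM, with 865 to 4887 CPM in the others, and for apoptosis and p53 targets at 7184 CPM, with 1717 to 2756 CPM in the others. UBA2 was at 965.8 CPM in 5546-s9 and 63.8 to 253 CPM in the other 4.

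In 1 of 30 measures checked, every high-share CTC of mouse 5546 lay on 1 side of the low-share mean of its mouse and every high-share CTC of mouse 5549 on the other side. The means alone had opposite signs in the mice for further lists, such as the S phase genes with log2 differences of 0.61 and -1.29. The summed level of mitochondrial import and chaperone genes, high minus low, was 969.4 CPM in mouse 5546 and -914.6 CPM in mouse 5549, and this difference between the mice was not tested.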

How the results depend on the processing

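The size rule called 645 genes higher and 1007 lower. A pseudocount of 8 gave 607 lower, and no filter on low values gave 1554 lower. Values as deposited, without rescaling, gave 247 higher and 1654 lower, and means of log values gave 261 and 1737. These 2 settings moved the median of all genes tested from -0.23 to -0.59 and -0.87. At a threshold of 8% there were 14 high-share CTCs and all 5 mice held both classes, with 10 genes higher, 33 lower and a difference of 240 genes detected in place of -2085. At 15%, 1 mouse was left, with 1699 higher and 2096 lower. A share from the 13 protein-coding genes, with 7 CTCs in the class, gave 158 and 347 over 3 mice, and at 10% put 3 CTCs in the class. Counting a gene as detected from a value of 8 gave -1232. The replicate block by mouse gave 0 higher and 0 lower in limma, weighted or not and also at 8%, 0 and 0 without the block over 5 mice, 0 and 0 in edgeR, and 10 and 3 in DESeq2. Leaving out each mouse gave 644 to 2320 higher and 996 to 3003 lower, the upper ends without mouse 5546, since 1 mouse was then left, and -2658 to -1512 genes detected. Leaving out each high-share CTC gave 463 to 657 higher and 978 to 1331 lower. Of 702 list medians recomputed, 586 moved by no more than the spread, the SD of the medians of the 2 mice, and 116 by more. That spread is wide where the mice disagreed. The glycolysis median was below 0 in 26 of 26 settings, from -2.10 to -0.93, but the settings were not all separate. Leaving out mouse 5541, 5542 or 5545, which held no high-share CTC, gave the main median of -1.41 again. The threshold of 15% and leaving out mouse 5549 both left mouse 5546 alone, at -1.03. The cause of the changes between settings was not tested. Depth limits single genes, since a gene at 0 in the shallower high-share CTCs may have been missed.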
